A study of Mus musculus with 16 samples.

Results

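Chloride channels and their relatives were followed in 6DT1 cells, a mouse mammary cancer line of the FVB/N1 strain. Of the 25745 genes in the count table, 42 were taken by symbol: 9 CLC genes, 9 anoctamins (Ano), 5 LRRC8 genes, 4 bestrophins (Best), 4 CLIC genes, 3 tweety genes (Ttyh), 6 CLCA genes, Clns1a and Cftr. Bsnd was searched for but is not among the row names. Messenger RNA levels were measured by RNA sequencing in 16 libraries, 4 in each of 4 groups. Untreated empty-vector cells gave libraries 9 to 12, and empty-vector cells kept for 24 h with 1 µM H2O2 gave libraries 13 to 16. Libraries 1 to 4 came from untreated cells with the lentivirus, and libraries 5 to 8 from such cells with the same H2O2 treatment. The series describes both lines as lentivirus-transduced, with the vector empty or expressing CLIC4, while the sample descriptions call the empty-vector cells CLIC4 knockouts and the lentivirus cells wild type, so that "lentivirus" here means cells with CLIC4 by either account. The labels do not say whether a line is 1 clone, nor whether the 4 libraries per group are from independent cultures. The p-values therefore rest on differences among libraries that may be no more than technical replicates.

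Chloride is the main anion that crosses cell membranes, and its channels set volume, pH and membrane voltage. The CLC family holds plasma membrane channels and proton-coupled exchangers of endosomes and lysosomes. Anoctamins are calcium-activated chloride channels or lipid scramblases, LRRC8 proteins form the volume-regulated anion channel around the obligate subunit Lrrc8a, and bestrophins are calcium-activated anion channels. CLIC proteins resemble glutathione S-transferases of the omega class, occur in soluble and membrane forms, and have glutaredoxin-like oxidoreductase activity; whether they conduct chloride in cells is debated.

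Total counts per library ran from 47.1 M to 61.9 M. Library 11, of the untreated empty-vector group, stood apart: its highest correlation with another library of its group (log2 of CPM + 1 over the genes tested) was 0.926, while every other pair within a group reached at least 0.998. It also had a TMM scaling factor of 0.721, against 0.986 to 1.04 for the other 15 libraries. For the members, the untreated comparison of the vectors is therefore given with all 16 libraries and without library 11. The treated comparison holds no library 11, but shares the estimate of spread with it, and is given again without it where a call changed. Where libraries are listed those of untreated empty-vector cells stand in the order 9, 10, 11 and 12. Of the luminal epithelial markers, Krt8 was high, at group means of 416 to 595 CPM, whereas Epcam was at 0.005 to 0.022 CPM in the 3 groups without library 11 and at 13.0 CPM in library 11. Some markers differed between the vectors. The summed luminal list (7 genes in the table, carried by keratins) was 940 to 1399 CPM in untreated and 921 to 1029 CPM in treated empty-vector libraries, against 565 to 618 and 580 to 609 CPM with the lentivirus. The immune list (5 genes, nearly all Cd68, with Ptprc at 0 in both empty-vector groups) summed to 223 to 385 and 228 to 258 CPM against 77.6 to 82.9 and 80.9 to 92.6 CPM. The endothelial list (4 genes, mostly Cdh5) summed to 3.78 to 7.78 and 3.53 to 4.73 CPM against 79.9 to 85.2 and 82.0 to 85.9 CPM. In library 11 its Pecam1 was at 3.32 CPM beside Cdh5 at 4.25 CPM. The basal list (6 genes, mostly Trp63) summed to 0.223 to 1.92 and 0.194 to 0.466 CPM against 3.97 to 5.02 and 4.47 to 4.99 CPM, with Krt14 at 0 in 3 of the 4 groups. The fibroblast list (6 genes, 3 called higher and 3 lower) summed to 19.4 to 23.9 and 18.2 to 21.4 CPM against 13.6 to 15.0 and 15.3 to 18.2 CPM, and the adipocyte list (3 genes) to at most 0.13 CPM. The part of these lists in the differences between the vectors given here was not tested. Fewer cells of a type and less RNA per cell cannot be told apart in such bulk libraries.

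Per length of transcript, Clic1 was the most abundant of the 42 genes, followed by the calcium-activated chloride channel gene Ano1. The deposited FPKM values (normalised by transcript length and depth, averaged over the 4 groups without library 11) were 232 for Clic1, 78.4 for Ano1, 59.8 for Clns1a, 39.3 for Ano6 and 36.1 for Clic4. Clcn3, Ano10 and Lrrc8d followed at 27.5, 25.7 and 25.6 FPKM, and Ano8 and Ttyh2 at 16.4 and 13.3 FPKM. Between 1 and 10 FPKM lay Clcn4 (9.72), Clcn6 (8.60), Ttyh3 (6.41), Clcn7 (6.21), Lrrc8a (5.24), Lrrc8c (5.17), Clcn5 (3.94), Lrrc8b (3.41), Clcn2 (2.92) and Clcn1 (1.38). Clca4a was at 0.430 FPKM, and the remaining members in the FPKM table were below 0.1 FPKM. Every family except Cftr, CLCA and the bestrophins thus had a member above 1 FPKM in this line.

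**Figure D1:**
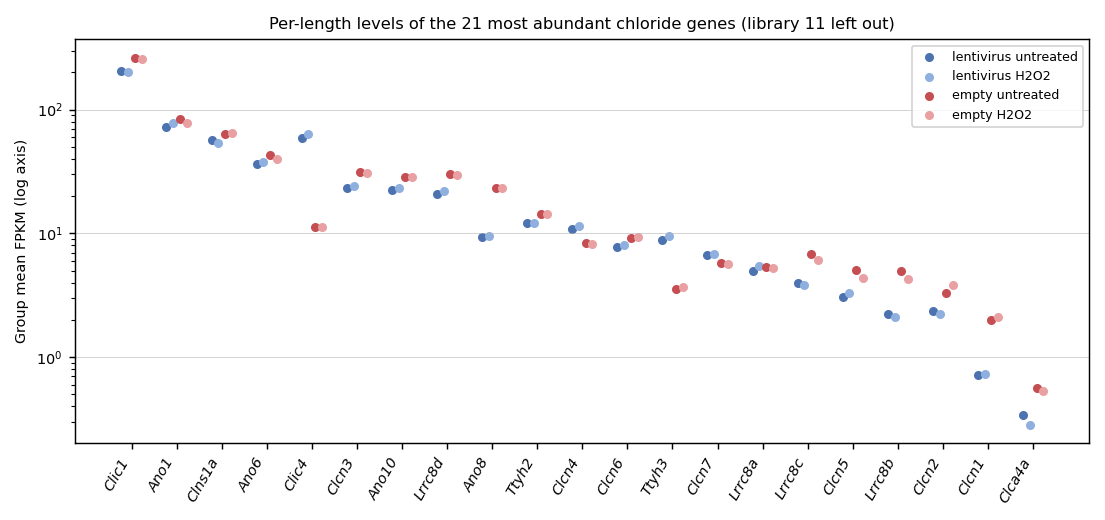
Group mean FPKM (log axis) of the 21 most abundant chloride genes, ordered by their mean over the 4 groups with library 11 left out; each point is 1 group mean. Clic4 drops from 58.8 and 63.2 FPKM with the lentivirus to 11.2 FPKM in both empty-vector groups, while most other genes lie close together or higher in empty-vector cells.

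Of the 42 members, 25 passed the filter on low counts and were tested, among 14445 genes in all (26 of 14602 without library 11, Ano4 being added). In untreated cells, empty-vector cells held 14 of the 25 at a higher and 4 at a lower level than lentivirus cells by edgeR's quasi-likelihood test at a Benjamini-Hochberg adjusted p under 0.05, where the share of all genes tested that was called was 29.0% (higher) and 24.3% (lower). Without library 11 these were 20 higher and 5 lower of 26, with 37.0% and 37.3% of all genes. In treated cells 11 members were higher and 4 lower of 25 (22.1% and 20.0% of all genes), and without library 11 there were 18 and 5 of 26 (36.6% and 37.2%). Of the 25, 4 passed the filter through the libraries of 1 vector alone and so had to differ: Best3, Clic5 and Lrrc8e are among them, as is Ano4 without library 11. The other 21 passed in both vectors, with 11 higher and 3 lower in untreated and 8 and 3 in treated cells (16 and 4, and 14 and 4, without library 11). The median log2 change of the members was 0.39 in untreated and 0.28 in treated cells, against 0.026 and -0.012 over all genes tested (0.36 and 0.31 against -0.021 and -0.011 without library 11). With all libraries, 10 members were higher and 4 lower under both treatments and none was called in opposite directions. Without library 11, 18 were higher, Ano4 among them, and 5 lower in both. The 18 untreated calls and the 15 treated calls made with all libraries were made in the same direction without library 11, which added 6 and 7 calls among the 25 members. The 4 members that had to differ are among the calls shared by the treatments and by the fits. For them, as for Ano4, this agreement is no result. Lrrc8a was called in neither fit and under neither treatment.

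**Figure D2:**
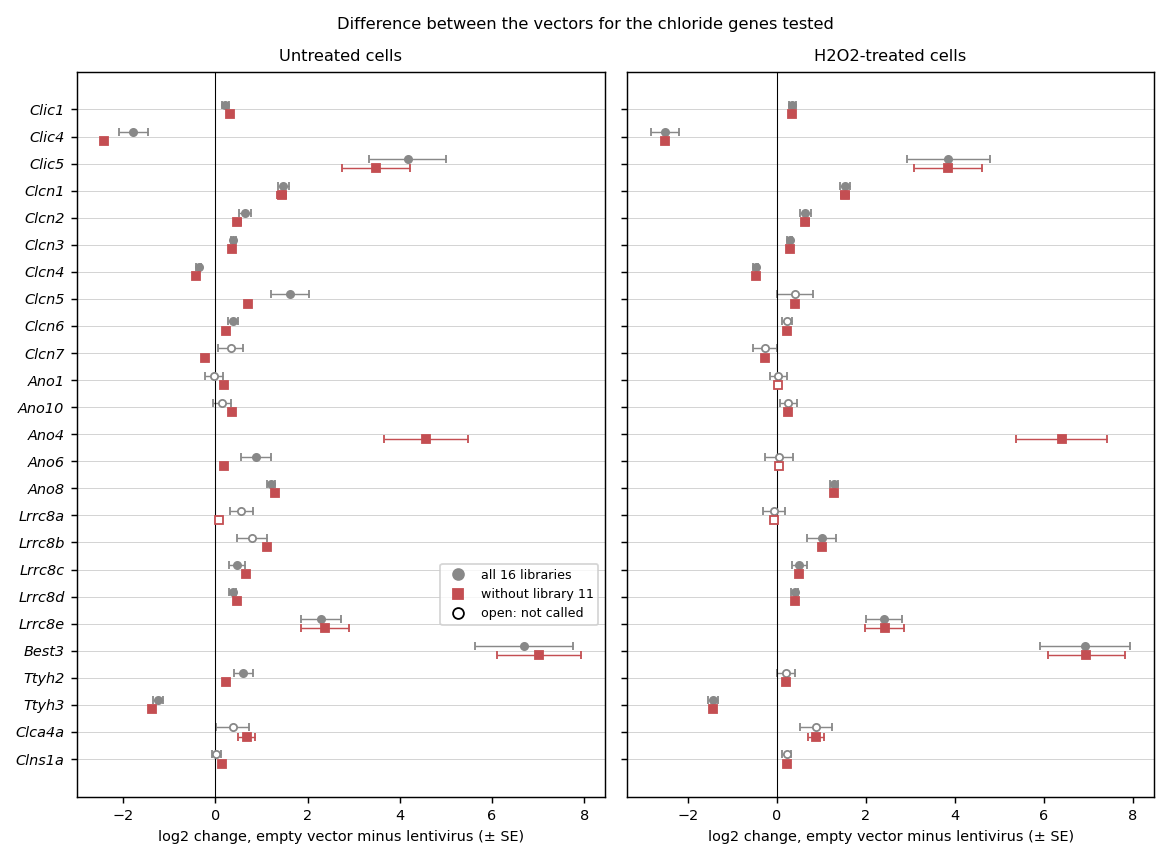
Fitted log2 change (empty vector minus lentivirus, ± SE) of the chloride genes tested and described here, untreated on the left and H2O2-treated on the right, from all 16 libraries (grey circles) and without library 11 (red squares); filled points are called and open points are not. Clic4, Ttyh3 and Clcn4 lie left of 0 in both panels and both fits. The fitted values of Best3, and of Ano4 in treated cells, rest on 0 counts in every lentivirus library and are no estimate of size.

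Clic4, the gene by which the lines are labelled, was the CLIC gene that was lower in empty-vector cells. Untreated empty-vector libraries held 41.5, 41.2, 138 and 44.7 TMM-scaled CPM (CPM being counts relative to library size, which was scaled by the trimmed mean of M values), against 225, 244, 222 and 223 with the lentivirus. Treated cells held 45.1, 41.8, 43.0 and 39.5 CPM with the empty vector and 249, 258, 230.3 and 234 CPM with the lentivirus. Every empty-vector library was below every lentivirus library, and library 11 lay between the other empty-vector libraries and the lentivirus group. The log2 change was -1.79 ± 0.31 (SE) in untreated cells (edgeR adjusted p = 2.88e-04) and -2.43 ± 0.052 (SE) without library 11 (adjusted p = 2.97e-18), the latter a 5.38-fold lower level. In treated cells it was -2.52 ± 0.32 (SE) (adjusted p = 1.78e-05). Clic4 reads remained in the cells labelled as knockouts, and gene counts do not show whether a transcript is intact or comes from the lentivirus.

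Clic4 lies on chromosome 4 of mm10, from 135213969 to 135272814 on the minus strand. The sequence before its start is shown because it belongs to the gene by which the lines differ. It is RefSeq's promoter entry (build GRCm38.p6), from 250 bases before the start and without the bases inside the annotated gene, 5′ to 3′; no AP-1, E-box or TATA motif, each spelled out with the genes that hold it and searched on both strands, occurs in it, and it holds 16 CpG.
Clic4 chr4:135272815-135273010 (- strand): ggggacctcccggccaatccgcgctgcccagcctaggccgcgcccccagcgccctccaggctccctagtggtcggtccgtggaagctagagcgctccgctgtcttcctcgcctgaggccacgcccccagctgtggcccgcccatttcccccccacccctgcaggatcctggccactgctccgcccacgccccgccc

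Clic1, a close relative with the same glutaredoxin-like fold, was slightly higher in empty-vector cells. Its levels were 317, 325, 241 and 313 CPM in untreated empty-vector and 251, 266, 242 and 270.0 CPM in untreated lentivirus libraries. With H2O2 they were 302, 306, 325 and 312 CPM in empty-vector and 246, 253, 244 and 239.9 CPM in lentivirus libraries. The treated groups did not overlap, and in untreated cells the overlap came from library 11, which was below all 4 lentivirus libraries. The log2 change in untreated cells was 0.22 ± 0.079 (SE) (edgeR adjusted p = 0.0331), 0.31 ± 0.036 (SE) without library 11 (adjusted p = 2.55e-07) and 0.34 ± 0.079 (SE) in treated cells (adjusted p = 0.0029). The untreated call was lost when any of libraries 1, 3, 9, 10 and 12 was left out, with no filter or the 10 CPM filter, with the 2 groups fitted alone and by limma on log2 FPKM, with adjusted p values over the alternatives from 9.60e-08 to 0.609. The treated call was lost by limma on log2 FPKM (adjusted p up to 0.134).

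Clic5, which in other tissues links membranes to the actin cytoskeleton, was near the limit of detection. Untreated empty-vector libraries held 10, 10, 26 and 10 counts and lentivirus libraries 1, 0, 0 and 2 counts. Treated libraries held 14, 3, 11 and 8 counts with the empty vector and 1, 0, 0 and 1 counts with the lentivirus. Each empty-vector library thus had more Clic5 reads than each lentivirus library under the same treatment. The depth-scaled ratio of the summed counts was 19.5 (95% counting interval 6.33 to 97.2) in untreated cells, 12.8 (3.98 to 65.6) without library 11 and 17.8 (4.59 to 153) in treated cells, with counting error alone in these intervals. Clic5 passed the filter through the empty-vector libraries alone, 5 of which and 0 of the lentivirus libraries were past its limit, so no p is given for it. Clic3 had 7 counts in all and was not tested: 2 each in libraries 1 and 6 of lentivirus cells, 1 in library 3 of the same vector, 1 each in libraries 9 and 14 of empty-vector cells, and 0 in the other 11 libraries.

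Within the family, the makeup of CLIC transcripts differed between the vectors. Clic4 made up 4.10% ± 0.237 (SD, n = 3) of the summed CLIC FPKM in untreated empty-vector cells without library 11 and 15.3% in library 11. It made up 4.17% ± 0.287 (SD, n = 4) in treated empty-vector cells, 22.1% ± 0.858 (SD, n = 4) in untreated lentivirus cells and 24.0% ± 0.683 (SD, n = 4) in treated lentivirus cells. Clic1 made up nearly all of the rest, with 95.9%, 95.8%, 77.9% and 76.0% in the same 4 groups without library 11.

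**Figure D3:**
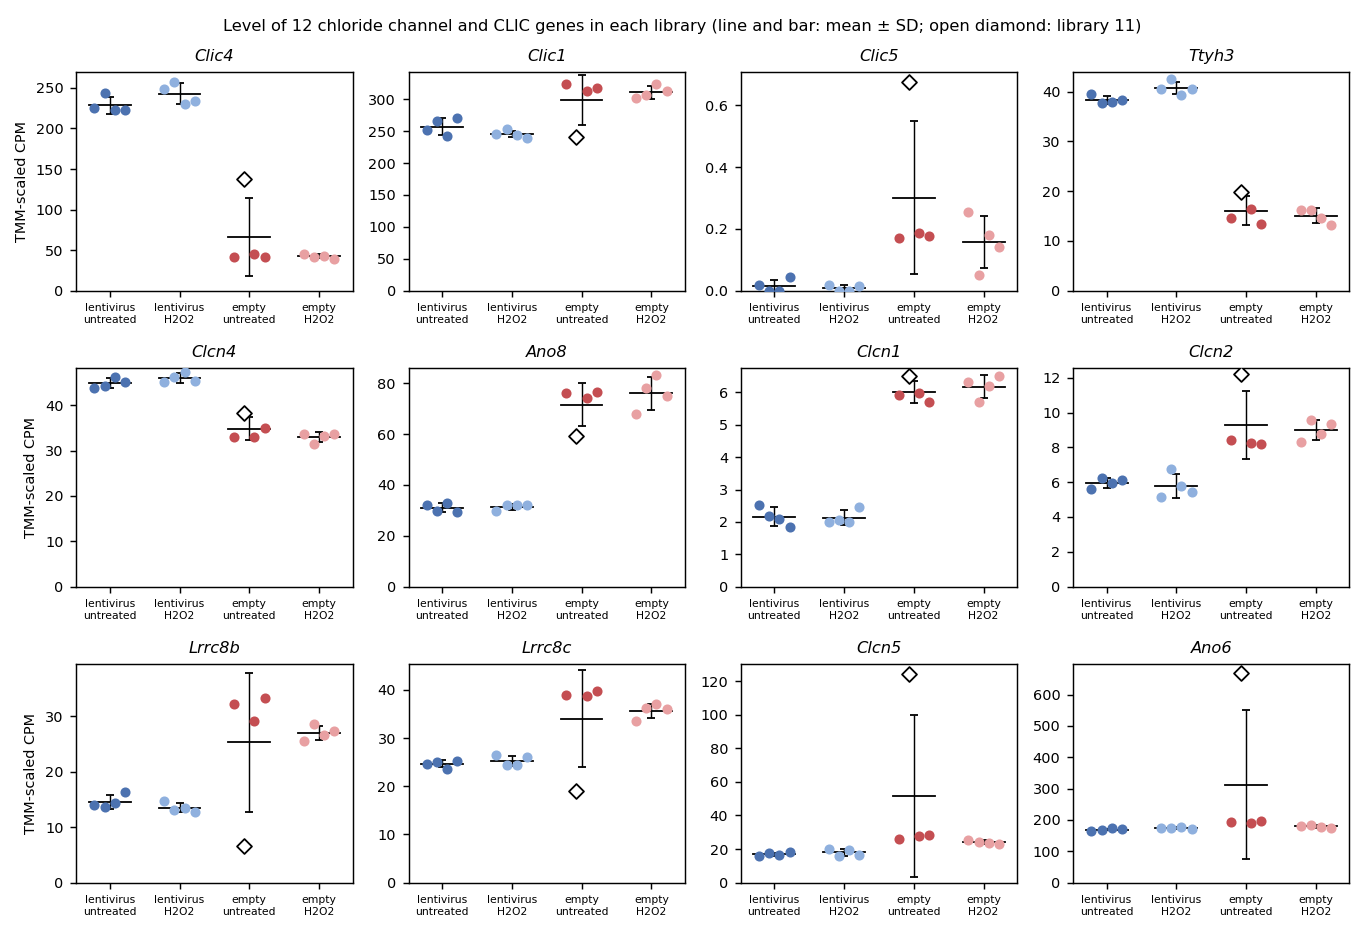
TMM-scaled CPM of 12 chloride genes in each library by group; points are libraries, the open diamond is library 11, and the line and bar are the group mean ± SD with library 11 included. Clic4, Ttyh3 and Clcn4 are lower in the empty-vector groups and Ano8 and Clcn1 higher, with no overlap; in Clcn5 and Ano6 the SD of the untreated empty-vector group is carried by library 11.

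Of the CLC genes that act at the plasma membrane, Clcn1 and Clcn2 were higher in empty-vector cells. Clcn1, the muscle chloride channel, was at 5.72, 5.92, 6.51 and 5.97 CPM in untreated empty-vector and 2.54, 2.17, 2.10 and 1.85 CPM in untreated lentivirus libraries. Treated libraries held 6.32, 5.70, 6.21 and 6.50 CPM with the empty vector and 2.00, 2.06, 1.98 and 2.47 CPM with the lentivirus. All 8 empty-vector libraries exceeded all 8 lentivirus libraries, and here library 11 was like the rest of its group. The log2 change was 1.47 ± 0.11 (SE) in untreated cells (edgeR adjusted p = 9.61e-08), 1.43 ± 0.10 (SE) without library 11, and 1.54 ± 0.11 (SE) in treated cells (adjusted p = 6.10e-08), a 2.78-fold and a 2.91-fold higher level. Clcn1 overlaps Fam131b on the opposite strand, which was itself higher in empty-vector cells (log2 change 3.33 untreated and 2.46 treated). Strandedness of the counts is not given in the sources used here, so reads of the pair cannot be told apart.

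Clcn2, a broadly expressed inwardly rectifying channel, was higher in empty-vector cells too. Its levels were 8.17, 8.43, 12.2 and 8.28 CPM against 5.59, 6.26, 5.92 and 6.12 CPM in untreated libraries. In treated libraries they were 8.29, 9.60, 8.76 and 9.36 against 5.14, 6.74, 5.80 and 5.43 CPM. The groups did not overlap under either treatment. Its log2 change was 0.63 ± 0.13 (SE) in untreated cells (edgeR adjusted p = 0.0011), 0.48 without library 11, and 0.64 ± 0.13 (SE) in treated cells (adjusted p = 0.0011). Clcn2 overlaps Fam131a and Polr2h on the opposite strand; Fam131a was called higher in empty-vector cells (5.15 and 5.62) but at group means of at most 0.427 CPM, and Polr2h was not called (0.30 and 0.18).

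Of the endosomal exchangers, Clcn3 and Clcn5 were higher and Clcn4 lower in untreated empty-vector cells. Clcn4 gave 35.0, 33.0, 38.4 and 32.9 CPM with the empty vector and 43.7, 44.3, 46.3 and 45.0 CPM with the lentivirus. With H2O2 it gave 33.7, 31.4, 33.1 and 33.6 CPM with the empty vector and 45.2, 46.1, 47.4 and 45.3 CPM with the lentivirus. Each empty-vector library was below each lentivirus library, by a log2 change of -0.36 ± 0.06 (SE) in untreated cells (edgeR adjusted p = 1.64e-04), -0.41 ± 0.038 (SE) without library 11, and -0.48 ± 0.06 (SE) in treated cells (adjusted p = 1.35e-05). Clcn3, with which it can pair, went the other way, with 150.2 ± 8.25 (SD, n = 4) CPM against 115 ± 3.91 (SD, n = 4) CPM in untreated cells and 145 ± 3.88 (SD, n = 4) against 119 ± 4.43 (SD, n = 4) CPM in treated cells (log2 change 0.39 ± 0.053 (SE) and 0.28 ± 0.052 (SE), both called, with 0.35 ± 0.036 (SE) in untreated cells without library 11).

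Clcn5, whose exchanger supports endosomal acidification in the kidney proximal tubule, depended on library 11 for its size. Untreated empty-vector libraries had 28.4, 26.0, 124 and 27.8 CPM and untreated lentivirus libraries 15.6, 17.4, 16.5 and 17.9 CPM. After H2O2 the empty-vector libraries had 25.3, 24.5, 23.3 and 22.7 CPM and the lentivirus libraries 20.1, 16.0, 19.3 and 16.6 CPM. Library 11 was more than 4 times as high as any other library, while the remaining empty-vector libraries still lay above the lentivirus libraries. The untreated log2 change was 1.61 ± 0.41 (SE) (edgeR adjusted p = 0.0044) with all libraries and 0.70 ± 0.07 (SE) without library 11 (adjusted p = 2.67e-08), and it was not called when the 2 groups were fitted alone (adjusted p = 0.0567). In treated cells it was 0.41 ± 0.40 (SE) and not called with all libraries (adjusted p = 0.451), and 0.41 ± 0.066 (SE) and called without library 11 (adjusted p = 1.24e-05). The treated difference was also called when the 2 treated groups were fitted alone and by limma with voom.

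The late endosomal Clcn6 and the lysosomal Clcn7, named here after their values were seen, differed by small amounts. Clcn6 was at 39.9 ± 2.67 (SD, n = 3) CPM in untreated empty-vector cells without library 11, against 34.3 ± 0.671 (SD, n = 4) CPM with the lentivirus, and was called higher in both fits (log2 change 0.38 with all libraries and 0.22 without library 11). In treated cells its log2 change was 0.22 in both fits, not called with all libraries (edgeR adjusted p = 0.14) and called without library 11 (adjusted p = 1.81e-04). Clcn7 gave 21.1, 20.7, 61.5 and 21.9 CPM in untreated empty-vector libraries and 25.3, 23.4, 26.3 and 24.4 CPM in untreated lentivirus libraries. Library 11 was far above all of them, and the other 3 empty-vector libraries were below all 4 lentivirus libraries. Clcn7 thus turned from a log2 change of 0.33 ± 0.28 (SE), not called (edgeR adjusted p = 0.324), to -0.23 ± 0.048 (SE), called lower (adjusted p = 3.02e-04), when library 11 was left out. In treated cells it was -0.27 with all libraries (adjusted p = 0.468) and -0.27 without library 11 (adjusted p = 1.55e-05). Ostm1, the beta subunit that Clcn7 requires, was lower in empty-vector cells in both treatments, by -0.43 and -0.50 on the log2 scale (adjusted p = 2.21e-04 and 6.79e-05).

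The upstream sequences of Clcn6 and Clcn7 are shown because both hold the palindromic E-box CACGTG, the core of the sites bound by Tfeb and other bHLH factors (capitals). Over the 250 bases before the start, 6.02% of 32851 RefSeq promoters and 6 of the 42 entries found for 34 members (14.3%) hold it; the other members were Ano3, Clcn4, Clns1a and Lrrc8a. Clcn6 holds it at 2 places and Clcn7 at 1. These are matches of letters, and the members that hold it include genes called higher (Clcn6) and lower (Clcn4) in empty-vector cells.
Clcn6 chr4:148038822-148039063 (- strand): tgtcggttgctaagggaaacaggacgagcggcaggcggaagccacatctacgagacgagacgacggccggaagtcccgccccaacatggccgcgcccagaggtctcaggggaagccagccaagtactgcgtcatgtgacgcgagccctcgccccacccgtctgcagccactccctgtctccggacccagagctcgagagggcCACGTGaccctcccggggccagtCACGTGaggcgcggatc
Clcn7 chr17:25133141-25133390 (+ strand): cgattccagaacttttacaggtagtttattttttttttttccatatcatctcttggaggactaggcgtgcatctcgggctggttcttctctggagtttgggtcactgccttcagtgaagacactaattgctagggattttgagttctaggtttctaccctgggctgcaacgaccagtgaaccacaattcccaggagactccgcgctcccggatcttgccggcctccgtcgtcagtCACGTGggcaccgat

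Among the anoctamins, Ano8 carried the clearest difference. Ano8, which tethers the endoplasmic reticulum to the plasma membrane, was at 76.7, 76.3, 59.2 and 74.3 CPM in untreated empty-vector and 32.2, 29.9, 32.9 and 29.4 CPM in untreated lentivirus libraries. Treated libraries gave 67.9, 78.2, 83.4 and 75.0 CPM with the empty vector and 29.6, 32.0, 32.1 and 32.1 CPM with the lentivirus. The lowest of the 8 empty-vector libraries, library 11, was above the highest lentivirus library. Its log2 change was 1.20 ± 0.089 (SE) in untreated cells (edgeR adjusted p = 5.92e-08), 1.28 ± 0.056 (SE) without library 11, and 1.28 ± 0.089 (SE) in treated cells (adjusted p = 3.26e-08), or 2.30-fold and 2.42-fold with all libraries. Dda1, which overlaps Ano8 on the opposite strand, was also higher in empty-vector cells, by a smaller log2 change of 0.46 untreated and 0.36 treated, and reads of the overlap cannot be assigned to a strand.

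Ano6, a calcium-activated phospholipid scramblase, was abundant and nearly level outside library 11. Untreated empty-vector libraries gave 197, 192, 669 and 189 CPM and lentivirus libraries 166, 169, 173 and 169.5 CPM. With H2O2 the values were 179, 185, 179 and 174 CPM with the empty vector and 174, 173, 179 and 170.2 CPM with the lentivirus. The untreated groups did not overlap and the treated groups did. The untreated log2 change was 0.88 ± 0.32 (SE) (edgeR adjusted p = 0.0328) with all libraries, of which 0.19 ± 0.029 (SE) was left without library 11 (adjusted p = 6.79e-06). In treated cells Ano6 was called in neither fit, with a 95% interval of -0.011 to 0.1 for the log2 change without library 11. Leaving out any of libraries 1 to 4, fitting the 2 groups alone or using limma on log2 FPKM ended the untreated call, and adjusted p ranged from 6.79e-06 to 0.157 over the alternatives.

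Ano1, the calcium-activated chloride channel of secretory epithelia, was called higher only in untreated cells and only without library 11 (log2 change 0.19 ± 0.031 (SE), edgeR adjusted p = 1.50e-05), and with all libraries it was at -0.037 ± 0.19 (SE) (adjusted p = 0.88). Library 11 held 105 CPM of Ano1 against 239 to 259 CPM in the rest of its group. Ano10 was called higher without library 11 in both treatments (0.36 and 0.25) and in neither with it (0.14 and 0.25). Ano4, which passed the filter only without library 11, had 27 counts in untreated and 43 in treated empty-vector cells against 1 and 0 with the lentivirus. The untreated ratio without library 11 was 34.6 (95% counting interval 5.70 to 1415), and in treated cells Ano4 was at least 14.2-fold higher, taking 3 counts over the group as the floor. Ano2 was rare and went the other way, with 3 and 2 counts in empty-vector cells against 24 and 14 with the lentivirus, a ratio of 7.67 (2.33 to 39.8) and 7.07 (1.62 to 64.1) in favour of the lentivirus. Ano3, Ano5 and Ano9 had 2, 1 and 19 counts over all libraries.

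Of the 4 LRRC8 genes that passed the filter in both vectors, 2 were called higher in untreated (Lrrc8c and Lrrc8d) and 3 in treated empty-vector cells (with Lrrc8b), where 29.0% and 22.1% of all genes were. Without library 11 these 3 were called in both treatments, where 37.0% and 36.6% of all genes were. Lrrc8b, one of the subunits that assemble with Lrrc8a, was at 33.3, 32.2, 6.64 and 29.1 CPM in untreated empty-vector libraries and 13.9, 13.7, 14.3 and 16.3 CPM in untreated lentivirus libraries. Treated libraries had 25.6, 28.6, 26.6 and 27.4 CPM with the empty vector and 14.6, 13.1, 13.5 and 12.8 CPM with the lentivirus. Library 11 was the lowest of all 16, and every other empty-vector library was above every lentivirus library. The log2 change was 0.80 ± 0.33 (SE) in untreated cells (edgeR adjusted p = 0.0508, not called), 1.12 ± 0.063 (SE) without library 11 (adjusted p = 3.69e-12) and 1.00 ± 0.33 (SE) in treated cells (adjusted p = 0.0228). With library 11 kept, the untreated difference was called with DESeq2-type size factors, by DESeq2 and by limma with voom. The treated call was lost without library 6 or library 8 and by limma on log2 FPKM (adjusted p from 1.49e-12 to 0.1003 over the alternatives).

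Lrrc8c, another partner of Lrrc8a, showed the same order. Its levels were 39.7, 38.9, 18.9 and 38.7 CPM against 24.7, 25.0, 23.7 and 25.2 CPM in untreated cells. In treated cells they were 33.6, 36.2, 37.0 and 36.0 against 26.4, 24.4, 24.3 and 26.0 CPM. Library 11 again lay below the lentivirus group and the other libraries did not overlap. Its log2 change was 0.47 ± 0.17 (SE) in untreated cells (edgeR adjusted p = 0.0318), 0.67 ± 0.042 (SE) without library 11 (adjusted p = 2.47e-11) and 0.50 ± 0.17 (SE) in treated cells (adjusted p = 0.0283). The untreated call ended when any of libraries 1 to 4, 9, 10 and 12 was left out, with no filter or the 10 CPM filter, with the 2 groups fitted alone and by limma on log2 FPKM (adjusted p from 1.25e-11 to 0.183 over the alternatives), and the treated call when any of libraries 6 to 8 and 14 to 16 was left out and where no filter was used, by edgeR or by limma on log2(FPKM + 1) (1.81e-10 to 0.0746).

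Lrrc8d, the subunit that widens the pore for organic osmolytes and some drugs, had the highest FPKM of the family. It was at 99.2 ± 12.1 (SD, n = 4) CPM against 76.4 ± 1.37 (SD, n = 4) CPM in untreated and 104 ± 2.04 (SD, n = 4) against 79.1 ± 2.40 (SD, n = 4) CPM in treated cells (log2 change 0.38 ± 0.073 (SE) and 0.40 ± 0.073 (SE), both called, with 0.46 ± 0.031 (SE) in untreated cells without library 11). Lrrc8e had 35 and 51 counts in empty-vector cells against 7 and 9 with the lentivirus, a fitted log2 change of 2.29 (2.38 without library 11) and 2.41. It too passed the filter through the empty-vector libraries alone, so its calls are not used. Lrrc8a, the subunit without which no volume-regulated current forms, was at 21.2 ± 1.22 (SD, n = 3) CPM in untreated empty-vector cells without library 11, 20.2 ± 0.817 (SD, n = 4) CPM in untreated lentivirus cells, and 20.8 ± 1.13 (SD, n = 4) and 21.7 ± 0.636 (SD, n = 4) CPM in the treated groups. Its log2 change without library 11 had 95% intervals of -0.04 to 0.18 in untreated and -0.17 to 0.037 in treated cells. By share of the summed LRRC8 FPKM, Lrrc8d made up 63.7%, 65.4%, 65.2% and 65.8% of the family in untreated and treated empty-vector and untreated and treated lentivirus cells, without library 11. Lrrc8a made up 11.3% ± 0.812 (SD, n = 3), 11.6% ± 0.575, 15.5% ± 0.703 and 16.2% ± 0.232 (SD, n = 4 each) in the same order, and 32.0% in library 11.

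Lrrc8b, Lrrc8c and Lrrc8d lie next to each other on chromosome 5, on the plus strand, with 29.3 and 87.0 kb between them and no other coding gene in between. Their upstream sequences are shown because these 3 neighbours differed in the same direction without library 11. All are rich in CpG, with 43, 27 and 27 in the stretches printed, where the median over all RefSeq promoters is 6 in 250 bases. The AP-1 motif TGANTCA (capitals) occurs in Lrrc8b alone of the 3; it is in 6.75% of all promoters and in 4 of the 42 member entries (9.52%), the others being Clic1, Clca3a2 and Clca3b. TATAAA occurs in none of the 3, in 12.4% of all promoters and in 4 member entries. No member entry holds more than 1 of these 3 kinds of motif.
Lrrc8b chr5:105415525-105415774 (+ strand): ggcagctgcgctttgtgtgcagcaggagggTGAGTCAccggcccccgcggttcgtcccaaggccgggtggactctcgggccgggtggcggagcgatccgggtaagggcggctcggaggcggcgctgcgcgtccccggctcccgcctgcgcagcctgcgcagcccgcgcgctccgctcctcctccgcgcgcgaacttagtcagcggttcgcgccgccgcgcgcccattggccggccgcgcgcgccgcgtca
Lrrc8c chr5:105519221-105519387 (+ strand): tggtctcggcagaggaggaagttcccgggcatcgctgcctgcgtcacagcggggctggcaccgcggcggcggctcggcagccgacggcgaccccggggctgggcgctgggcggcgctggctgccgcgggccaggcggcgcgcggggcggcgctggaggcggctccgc
Lrrc8d chr5:105699719-105699968 (+ strand): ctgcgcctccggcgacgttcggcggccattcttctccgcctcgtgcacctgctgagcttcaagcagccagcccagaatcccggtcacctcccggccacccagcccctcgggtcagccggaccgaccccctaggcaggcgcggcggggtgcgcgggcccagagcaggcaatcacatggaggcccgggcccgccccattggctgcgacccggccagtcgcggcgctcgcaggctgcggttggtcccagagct

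Ttyh3 and Ttyh2, tweety proteins first described as large-conductance anion channels, differed in opposite directions. Ttyh3 was at 13.4, 14.7, 19.9 and 16.4 CPM in untreated empty-vector and 39.5, 37.7, 37.9 and 38.3 CPM in untreated lentivirus libraries. Treated libraries held 16.2, 16.2, 14.6 and 13.1 CPM with the empty vector and 40.4, 42.5, 39.4 and 40.6 CPM with the lentivirus. The highest empty-vector library, library 11, was still far below the lowest lentivirus library. The log2 change was -1.25 ± 0.11 (SE) in untreated cells (edgeR adjusted p = 2.78e-07), -1.37 ± 0.067 (SE) without library 11, and -1.44 ± 0.11 (SE) in treated cells (adjusted p = 6.97e-08), or 2.38-fold and 2.71-fold lower. Ttyh2 was called higher in untreated cells (0.60 ± 0.21 (SE), adjusted p = 0.0242, and 0.22 ± 0.038 (SE) without library 11), and in treated cells only without library 11 (0.21 with adjusted p = 0.45, and 0.21 with adjusted p = 2.12e-05). Ttyh1 had 3 counts in all, each in library 2, and was not tested.

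The bestrophins, named after their values were seen, were rare. Best1 and Best3 had most of their reads in empty-vector cells, and Best2 had most of its reads in library 11. The pseudogene Best4-ps had 2 counts in all. Best3 had 11, 15, 2 and 22 counts in untreated and 19, 11, 21 and 12 counts in treated empty-vector libraries, and 0 counts in all 8 lentivirus libraries. It was at least 17.4-fold higher in untreated cells (20.5-fold without library 11) and at least 20.8-fold higher in treated cells, with 3 counts over the group as the floor. It passed the filter through the empty-vector libraries alone, so no p is given for it. Best1 had 25 and 41 counts with the empty vector against 1 and 6 with the lentivirus, an untreated ratio of 26.1 (95% counting interval 4.27 to 1071), and was not tested. Of the 20 Best2 counts in untreated empty-vector cells all were in library 11. Treated empty-vector cells had 1 Best2 count, and untreated and treated lentivirus cells had 2 each. The interval of Best1 reflects counting error alone. The folds of Best3 set its observed counts against the floor of 3 counts and hold no error.

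The CLCA genes, which encode regulators of calcium-activated chloride current, were rare apart from Clca2 in library 11. Clca4a, the one member tested, was at 1.52 ± 0.346 (SD, n = 3) CPM in untreated empty-vector cells without library 11 and at 0.311 CPM in library 11, with 268 and 331 counts in untreated and treated empty-vector cells against 207 and 179 with the lentivirus. It was called higher without library 11 (0.67 ± 0.19 (SE) untreated and 0.88 ± 0.19 (SE) treated) and in neither comparison with it (edgeR adjusted p = 0.395 and 0.0639). Clca3b had 27 and 31 counts against 2 and 1, with ratios of 14.1 (95% counting interval 3.54 to 122) and 30.7 (5.12 to 1252). Clca3a1, Clca3a2 and Clca4b had 1, 12 and 12 counts in all, and Clca3a1 with Clca3a2 and Clca4a with Clca4b are close copies in 1 cluster on chromosome 3 that counting could mix. Clns1a, a chaperone of spliceosome assembly once taken for a swelling-activated channel, was called higher only without library 11 (0.14 ± 0.042 (SE) and 0.22 ± 0.039 (SE)). Cftr, the cystic fibrosis chloride channel, had 5 counts over the 16 libraries.

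No chloride gene was called for a response to H2O2. By edgeR, 0 of the 25 members were called in empty-vector cells, in lentivirus cells or for the difference of the H2O2 responses, where 0% of all genes were called in each. At an unadjusted p under 0.05 there were 2, 0 and 0 members, beside 2120, 255 and 859 of all 14445 genes. Without library 11 there were again 0 of 26, with 0.240%, 0% and 0.192% of all genes called. At an unadjusted p under 0.05 there were then 6, 3 and 4 members, beside 1994, 2135 and 2391 of all 14602 genes. DESeq2, limma with voom and limma on log2 FPKM called 0 members as well. The 2 members in empty-vector cells were Clcn5 (-1.11 ± 0.40 (SE), unadjusted p = 0.0155) and Ano6 (-0.80 ± 0.32 (SE), unadjusted p = 0.0261); without library 11 their log2 changes were -0.19 and -0.10 (edgeR adjusted p = 0.199 and 0.0993). Lrrc8b and Lrrc8c stood at -0.22 and -0.13 in empty-vector cells without library 11 (adjusted p = 0.0997 and 0.146), and Ano1 had the smallest adjusted p for the difference of the responses (-0.16, adjusted p = 0.0895). For Clic4 the 95% interval of the log2 change with H2O2, without library 11, was -0.11 to 0.10 in empty-vector cells and -0.0056 to 0.18 in lentivirus cells, and for Clic1 it was -0.11 to 0.043 and -0.14 to 0.0043. The same interval for Clcn4 was -0.11 to 0.05 and -0.034 to 0.11, and for Ttyh3 -0.12 to 0.17 and -0.033 to 0.20.

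Library 11 differed from the rest of its group in a set of chloride genes, all named here after their values were seen. Clca2, a CLCA member of epithelia, held 2070 counts in library 11 and 2, 10 and 7 counts in libraries 9, 10 and 12, which is 53.7 CPM against a mean of 0.112 CPM, or 481-fold. In the other 12 libraries Clca2 had 2 to 9 counts, and 1 high library did not bring it past the filter. Of the members tested, 8 exceeded the mean of the other 3 libraries of the group at least 2-fold in library 11 (among them Ano6, Clcn5, Clcn7, Clic4, Clic5, Lrrc8a and Ttyh2) and 6 were at least 2-fold below it (Ano1, Ano10, Best3, Clca4a, Lrrc8b and Lrrc8c). These are 32% and 24% of the 25, beside 17.9% and 25.7% of all genes tested. Clcn5 was 4.54-fold, Ano6 3.47-fold, Clic4 3.25-fold, Clcn7 2.90-fold and Lrrc8a 2.64-fold higher. Lrrc8b was 4.76-fold lower, Ano1 2.36-fold, Ano10 2.27-fold and Lrrc8c 2.07-fold. Of the LRRC8 subunits, Lrrc8a was thus above and Lrrc8b and Lrrc8c below the rest of the group in this library. The counts depend on scaling, since TMM put the median of all genes at -0.15 on the log2 scale, DESeq2-type factors at -0.071 and total counts at -0.67: with the last, 6 members were higher and 7 lower, Lrrc8a and Ttyh2 dropping out and Clns1a joining.

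**Figure D4:**
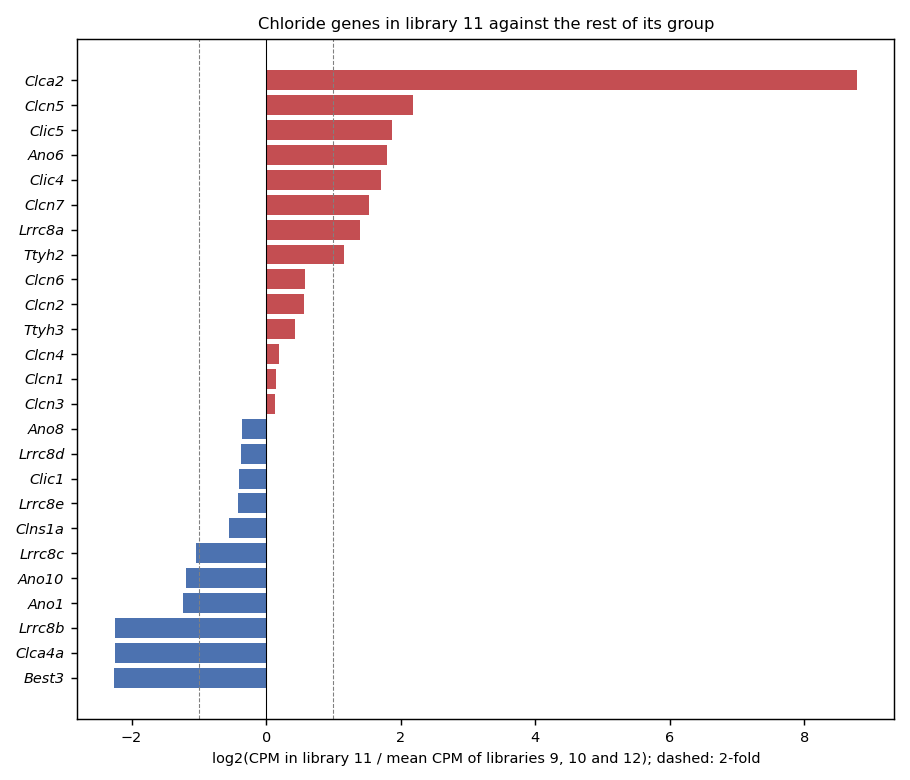
Log2 ratio of the CPM in library 11 to the mean CPM of libraries 9, 10 and 12 for Clca2 and the chloride genes tested and described here; 1 library against 3, with no error bar, and dashed lines at 2-fold. Clca2 stands at 481-fold, Clcn5 at 4.54-fold higher and Lrrc8b at 4.76-fold lower.

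Of 10 osmotic response genes tested, 6 exceeded the mean of libraries 9, 10 and 12 by 2-fold or more in the same library and Aqp3 fell short of it by as much, beside 17.9% and 25.7% of all genes. Akr1b3, the aldose reductase that makes sorbitol, was at 14375 CPM in library 11 against a mean of 172 CPM in libraries 9, 10 and 12 (83.5-fold). Sgk1, a kinase that acts on ion transport, was 64.2-fold, the water channel gene Aqp1 32.5-fold, the chaperone gene Hspa4l 12.5-fold, the osmotic transcription factor gene Nfat5 5.65-fold and the inositol transporter gene Slc5a3 2.17-fold higher. The taurine transporter gene Slc6a6 stood at 1.37 times the mean of the other 3 libraries, the channel gene Trpv4 at 0.831 times, and the water channel genes Aqp5 and Aqp3 at 1.01 and 0.285 times. Their part in the chloride genes of library 11 was not tested.

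Other genes of chloride transport were described by lists, beside the shares of all genes called higher and lower: 29.0% and 24.3% in untreated and 22.1% and 20.0% in treated cells, or 37.0% and 37.3%, and 36.6% and 37.2%, without library 11. Of 15 cation-chloride cotransporters and kinases of the WNK pathway tested, the untreated empty-vector cells held 6 at a higher and 6 at a lower level (6 and 6 without library 11), and treated cells 5 and 5. Slc12a2, the inward sodium-potassium-chloride cotransporter, had a log2 change of -1.38 in untreated cells (-1.59 without library 11), its activating kinase Stk39 of -3.50 (-3.24) and Wnk2 of -4.26 (-4.02). Slc12a4, an outward potassium-chloride cotransporter, was higher by 0.84 (0.78), Slc12a9 by 0.93 (0.84) and Slc12a8 by 4.35 (4.22). The mean of Wnk2 was 0.0093 CPM in untreated empty-vector cells, and that of Slc12a8 was 0.0544 CPM in untreated lentivirus cells. The values of Wnk2 and Slc12a8 are thus no firm estimates of size. Of 11 anion exchangers and bicarbonate transporters, 7 were higher and 1 lower (7 and 2 without library 11), and 6 and 2 in treated cells. Slc4a7, Slc26a10 and Slc4a8 were higher by 0.88, 4.29 and 3.63 (0.83, 4.28 and 3.17 without library 11), and Slc4a3 had a log2 change of -0.90 (-0.75). With a mean of 0.0949 CPM in untreated lentivirus cells, Slc26a10 has no firm estimate of size either. In these counts Slc12a1, Slc12a3, Slc12a8, Wnk2, Slc4a5 and Slc26a10 passed the filter through the libraries of 1 vector alone and so had to differ. Their calls are no result, and the counts of both lists are raised by them.

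Of 14 CLIC partners and relatives, 8 were higher and 0 lower in untreated (10 and 1 without library 11) and 7 and 0 in treated empty-vector cells (9 and 1), beside 29.0% and 24.3% of all genes in untreated (37.0% and 37.3%) and 22.1% and 20.0% in treated cells (36.6% and 37.2%). Msn, which links membranes to actin, was higher by 0.58 (0.49 without library 11), the actin-binding Pfn1, with which Clic4 interacts, by 0.44 (0.40) and the omega-class glutathione transferase gene Gsto1 by 0.80 (0.57). The list's median log2 change was 0.47 (0.32 without library 11), where the median of all genes was 0.026 (-0.021). Of 6 other anion channel genes, Slco2a1, which forms the maxi-anion channel, was higher (0.67, and 0.93 without library 11) and Ostm1 lower (-0.43, and -0.50). Of 2 ligand-gated chloride channel genes tested, Glrb, which passed the filter through the lentivirus libraries alone, had a fitted log2 change of -7.59 (-7.31 without library 11). Its mean in untreated empty-vector cells was 0.0213 CPM, so this value is no firm estimate of size. Gabre was higher (1.14, and not called without library 11, at 0.19). Of 8 other scramblases and flippases, 2 were higher and 2 lower (4 and 3 without library 11), and of 10 osmotic response genes 5 were higher and 1 lower (6 and 2 without library 11). In treated cells 1 of the osmotic response genes was higher and 2 were lower (5 and 4 without library 11), and the list's median log2 change was 0.54 in untreated cells, 0.22 without library 11 and 0.12 in treated cells.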

How the data were processed

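Cells were lysed for Qiagen column RNA extraction and Illumina library preparation, per the labels' protocols. The submitters' processing notes name cutadapt, STAR, RSEM and mm10. Not given in the sources used here: tool versions, annotation and strand setting. Whole numbers per gene stand in the deposited count table, although RSEM gives expected counts, so the authors may have rounded them. The deposited FPKM values, which the authors normalised for transcript length and sequencing depth, cover 41 of the 42 members.

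Groups were read from the sample titles. Counts were tested with edgeR 4.0.16 in R 4.3.3 by its quasi-likelihood F test, with TMM scaling, filterByExpr and 1 robust fit of all 16 libraries, Benjamini-Hochberg adjustment over all genes tested and calls at an adjusted p under 0.05. Each standard error is the absolute log2 change over the root of its F value. Alternatives used other size factors, DESeq2 1.42.0, limma 3.58.1, other filters and each library left out. No pair of libraries of a group agreed within sampling noise (lowest chi-square per degree of freedom 4.97). Positions came from GENCODE vM21. Scripts were tested on simulated data.

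The members and gene lists were chosen with earlier results of these data known. Of the members, 2 enter the counts but are not reported here. Values in every library were printed for CLIC genes and, per comparison between vectors, for up to 5 members called in each direction whose mean log2 CPM was 1 or more, by size of change; for lists, up to 3 genes per direction by smallest adjusted p. Other genes named with values were chosen after these were seen.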

Additional observations from a re-analysis of the deposited data

Results flagged for a closer look

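Each of 12 genes was checked in each of 4 groups, as 48 sets of 4 libraries. In 12 of these sets the highest or lowest library stood farther from the rest than Dixon's 95% limit for 4 values allows. Chance flags about 1 in 20 independent sets. These sets share libraries, and most of the genes were chosen by their change in a fit that held library 11, so that rate is no yardstick here. In 9 of the 12 the library flagged was library 11 of the untreated empty-vector group. It was the highest of its group in Ano6 (669 CPM, next 197), Clcn2 (12.2 CPM, next 8.43), Clcn5 (124 CPM, next 28.4), Clic4 (138 CPM, next 44.7) and Clic5 (0.674 CPM, next 0.186). It was the lowest in Ano8 (59.2 CPM, next 74.3), Clic1 (241 CPM, next 313), Lrrc8b (6.64 CPM, next 29.1) and Lrrc8c (18.9 CPM, next 38.7). The other 3 were Ano8 in library 5 of treated lentivirus cells (29.6 CPM, next 32.0), Clcn1 in library 8 of the same group (2.47 CPM, next 2.06) and Clic4 in library 2 of untreated lentivirus cells (244 CPM, next 225).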

How the results depend on the processing

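For untreated cells, the 18 members called became 10 with a filter of 10 CPM, 8 in a fit of the compared groups alone, and 10 by limma on log2(FPKM + 1) and on log2(FPKM + 0.1); with each library left out in turn they ran from 15 to 25, the highest without library 11. For treated cells, the 15 members became 9 with the 10 CPM filter, and ran from 13 to 23 with each library left out, the highest again without library 11. The stricter filter tests fewer genes. So do the limma runs given here, which kept genes at 0.5 FPKM or more in at least 4 libraries. Best3, Clic5 and Lrrc8e, which are among the 18 calls, reached at most 0.17, 0.09 and 0.08 FPKM in any library. They could therefore not be called in those runs. The cause of the other changes was not tested. No member named by the rule changed direction in any alternative run, while Clcn7, named after its values were seen, turned from 0.33 to -0.23 (log2) in untreated cells without library 11. Over the named members, 33 of 294 untreated values were no longer called and 4 became called; for treated cells these were 17 and 3 of 294. Calls of Clic4, Ttyh3, Clcn4, Ano8, Clcn1 and Clcn2 were made under every alternative that could be computed for them, in both comparisons. No paired analysis was possible because library numbers are not shared by groups. The biological coefficient of variation was 23.1% with all libraries and 5.28% without library 11, which sets how small a difference could be called. Members under about 100 counts in all rest on few reads.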
